A study of Mus musculus with 6 samples.

Results

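The nuclear-encoded respiratory chain genes were examined in primary mouse hippocampal neurons after a short exposure to forskolin. The genes were chosen by symbol: those that begin with Nduf, Uqcr or Atp5, or with Cox followed by a digit from 4 to 8, pseudogene symbols left out, and a summed count of at least 20 over the 6 libraries. This gave 86 of the 37411 gene rows. Of these, 36 encode subunits of complex I, 7 encode complex I assembly factors, 8 encode subunits of complex III, 17 of complex IV and 15 of complex V, and 3 (Cox7a2l, Atp5s and Atp5sl) carry such a symbol without being subunits of the enzymes they are named for. Ndufa4 and its paralog Ndufa4l2 were placed with complex IV, in which the Ndufa4 protein is found. Just inside the count minimum lay Cox8b with 30 summed counts, Cox4i2 with 62 and Ndufa4l2 with 76. Just outside lay Cox7b2 with 12 and Cox8c with 0.

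The cultures came from newborn pups (P0) of the outbred strain CD-1 IGS and were used at 16 days in vitro; the labels name no genetic change. Controls, libraries 1, 2 and 3, received DMSO, the solvent; libraries 4, 5 and 6 received forskolin at 50 µM, an activator of adenylyl cyclase that raises cyclic AMP. Both treatments lasted 30 min, and total RNA was sequenced from whole cultures. The labels do not say whether the libraries of a group came from separate preparations or pooled pups, so p-values measure only the spread between these libraries.

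The respiratory chain moves electrons from NADH and succinate through complexes I, III and IV to oxygen and pumps protons across the inner mitochondrial membrane, and complex V (ATP synthase) uses the returning protons to make ATP. Most subunits are encoded in the nucleus, made in the cytosol and imported, while a small core is encoded in mitochondrial DNA. Neurons depend heavily on this pathway, because synaptic transmission and ion pumping consume much ATP.

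Total counts ranged from 28342764 to 47548379 per library, so that counting error was small for all but the rarest of these genes. Forskolin libraries 4 and 5 stood apart from library 6. The summed level of 12 microglial marker genes was 35.3, 24.9 and 23.0 CPM (counts relative to the scaled size of the library) in libraries 1, 2 and 3, against 227, 377 and 25.1 in libraries 4, 5 and 6; none of the 12 was at 0. For 14 neuronal markers the sums were 4770, 5629 and 6098 CPM against 3553, 3845 and 5696, all 14 being present. Markers of the oligodendrocyte lineage (12 genes) summed to between 836 and 936 CPM with DMSO and between 652 and 1624 CPM with forskolin. Astrocyte markers (12 genes) summed to between 9344 and 10426 CPM in all 6 libraries, with opposite differences among them: in libraries 4 and 5 Aqp4 stood at 675 and 862 CPM against 212 to 313 in the other 4, and Glul at 867 and 903 CPM against 1496 to 1682. Vascular and fibroblast markers (12 genes, Cldn5 at 0 in 5 of 6 libraries) summed to between 135 and 454 CPM. With all libraries 1 neuronal marker was called lower and no other marker was called by edgeR's quasi-likelihood test at an adjusted p under 0.05, where 1.34% of all genes were lower and 0.172% higher. Without library 6 the calls were 11 of 12 microglial markers higher, 9 of 14 neuronal markers lower, 7 oligodendrocyte-lineage markers higher and 2 lower, 2 astrocyte markers higher and 4 lower, and 1 vascular or fibroblast marker higher, where 17.1% of all genes were lower and 16.5% higher. The share of counts in the mitochondrial ribosomal RNA genes ran from 14.0 to 23.7% in the DMSO libraries and from 26.9 to 33.3% with forskolin. In such bulk samples fewer cells of a type and less RNA per cell cannot be told apart.

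After forskolin, 1 of the 84 respiratory chain genes that could be tested changed: Atp5d, which encodes the delta subunit of the ATP synthase F1 head, fell. No member rose. By edgeR's quasi-likelihood test on 16233 genes, 1.34% were called lower and 0.172% higher at a Benjamini-Hochberg adjusted p under 0.05, so the members' 1.19% lower lay near the background. The 2 members left out of the test were Cox4i2 and Cox8b, which did not reach the minimum count. At an unadjusted p under 0.05 there were 25 lower and 5 higher members, or 29.8% and 5.95%, beside 11.7% and 10.6% of all genes. The authors' deposited table of 132 genes, all with positive log2 fold changes, held none of the 86.

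Short of the adjusted threshold, the forskolin values leaned low. The fitted log2 fold change was below 0 for 59 of 84 members (70.2%), beside 48.2% of all tested genes. Its median was -0.22 over the members and 0.02 over all genes, and it ranged from -0.97 (Cox5a) to 0.53 (Ndufaf2). In 30 members (35.7%) every forskolin library lay below every DMSO library, against 16.2% of all genes; in 7 (8.33%) every forskolin library lay above, against 10.3%. Summed over the 86 genes the level was 8097, 8987 and 8102 CPM in libraries 1, 2 and 3, against 6763, 6559 and 8331 CPM in libraries 4, 5 and 6. Libraries 4 and 5 were below all 3 controls, and library 6 lay among them. As a share of the counts outside mitochondrially encoded genes the sum was 1.07, 1.16 and 1.03% with DMSO and 0.96, 0.92 and 1.13% with forskolin, again with libraries 4 and 5 below the controls and library 6 among them. As a share of all counts it was 0.915, 0.876 and 0.818% against 0.670, 0.604 and 0.817%, library 6 lying just below the lowest control. The log2 ratio of the group means was -0.22 for the summed CPM, -0.11 for the share outside mitochondrially encoded genes and -0.32 for the share of all counts.

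**Figure D1:**
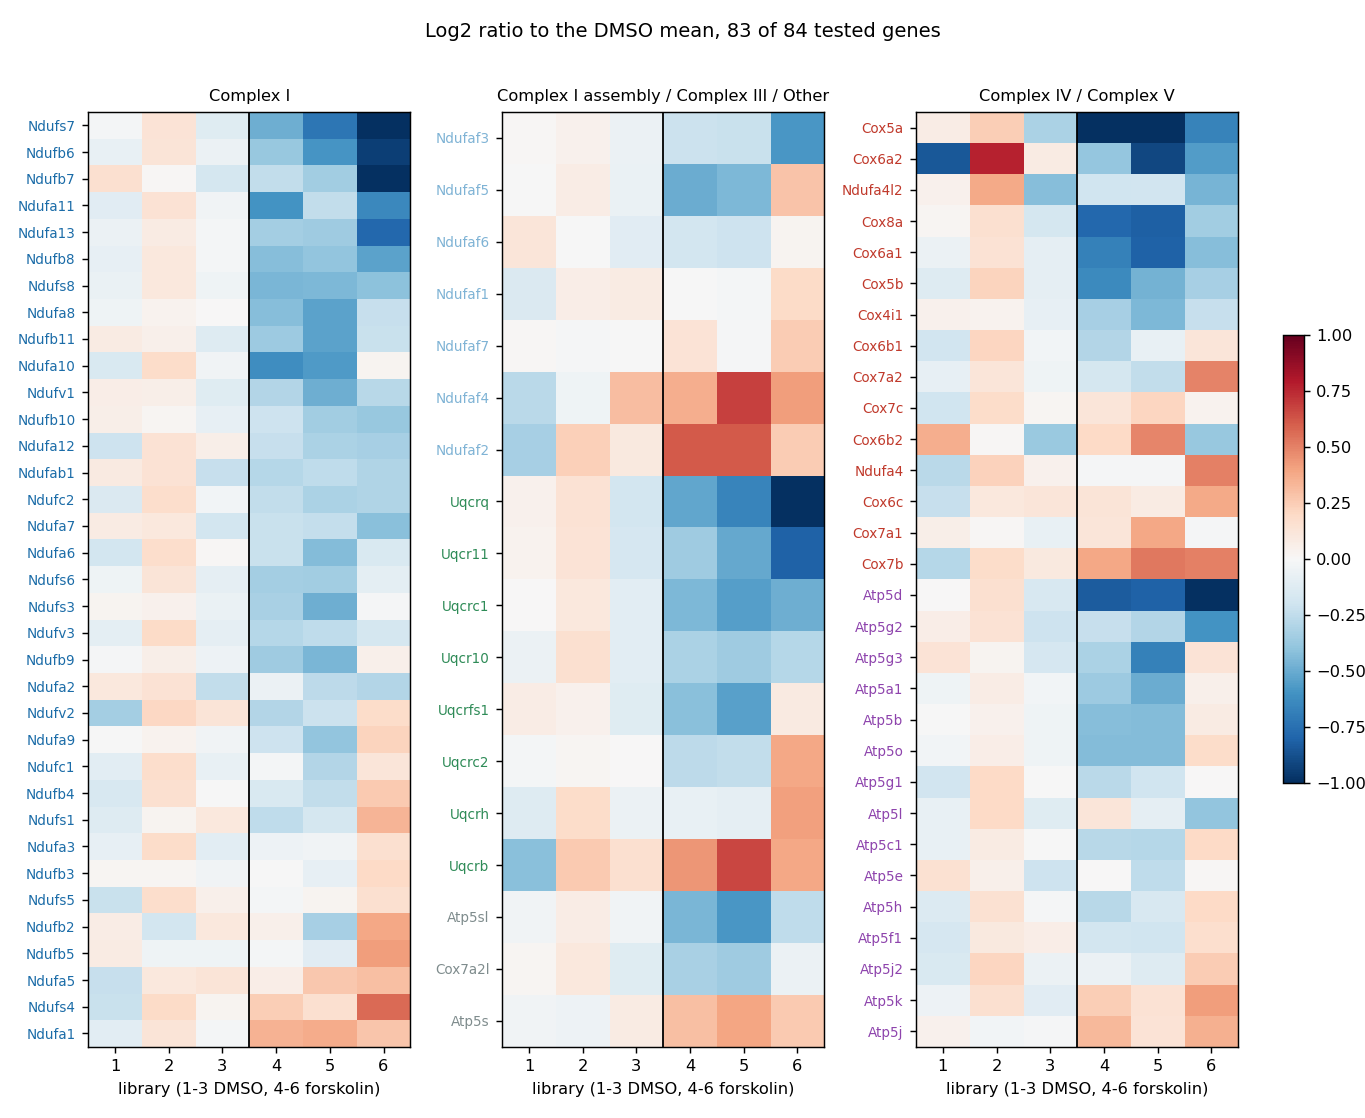
Level of 83 of the 84 tested genes in each of the 6 libraries (columns), as the log2 ratio of CPM plus 0.5 to the mean of the DMSO libraries, with blue for lower, red for higher and colours ending at 1 and -1. Genes are ordered by fitted fold change within each complex; libraries 4 and 5 are mostly blue, while library 6 is red for many genes of each complex.

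How many members were called depended on library 6. Without it, edgeR called 34 of 85 members lower (40.0%) and 0 higher, where 17.1% and 16.5% of all genes were called. The 34 include 14 of complex I, 6 of 8 in complex III, 5 of complex IV and 6 of complex V. DESeq2 on all 6 libraries called 12 lower and 0 higher (background 6.03% and 4.90%; 1 member had no adjusted p), and limma with library quality weights called 39 lower and 5 higher (20.9% and 21.0%). The 12 that DESeq2 called were Atp5d, Cox5a, Cox6a1, Cox8a, Ndufa13, Ndufb6, Ndufb8, Ndufs7, Ndufs8, Uqcr11, Uqcrc1 and Uqcrq. With any one of libraries 1 to 5 left out edgeR called 0 members. The shares of all genes called in those fits are not given here, so the 0 is no result about the members. With libraries 4 and 5 both left out, which leaves 1 forskolin library, the median member fold change was 0.05 on the log2 scale. Libraries 4 and 5 also held more microglial transcripts and less neuronal marker RNA, and the part of these levels in the result was not tested.

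Atp5d stood at 157, 175 and 139.9 CPM in DMSO libraries 1, 2 and 3, compared with 87.6, 89.2 and 76.6 CPM in forskolin libraries 4, 5 and 6. The groups did not overlap, and library 6 was the lowest of all. The log2 fold change was -0.90 ± 0.13 (SE), at an adjusted p of 0.037 by the same test. Atp5d lies on chromosome 10 (chr10:80138632-80145818, plus strand, GRCm38, GENCODE M21). Its annotated transcript is 61.1% G or C, the highest share among the members with a value. Once the GC trend of each library was taken out, the value was -0.33 (adjusted p 0.378) and the call was lost. With any one of libraries 1 to 5 left out the value stayed between -0.80 and -0.98, at adjusted p from 0.132 to 0.299. Its exons share 68 bases with Cbarp on the opposite strand, and a counting rule that uses strand is not given in the sources used here, so that reads of the shared stretch cannot be told apart. Cbarp had 5051, 5266 and 5609 counts with DMSO and 3509, 2506 and 2068 with forskolin.

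Cox5a encodes a subunit of cytochrome c oxidase (complex IV) and had the most negative fold change of the members. Its level was 34.3, 38.6 and 26.1 CPM with DMSO and 15.7, 14.5 and 20.4 CPM with forskolin. All forskolin libraries lay below all DMSO libraries, and the log2 fold change of -0.97 ± 0.20 had an adjusted p of 0.073. The transcript is 49.0% G or C, and after correction for GC the value was -1.01 (adjusted p 0.213).

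**Figure D2:**
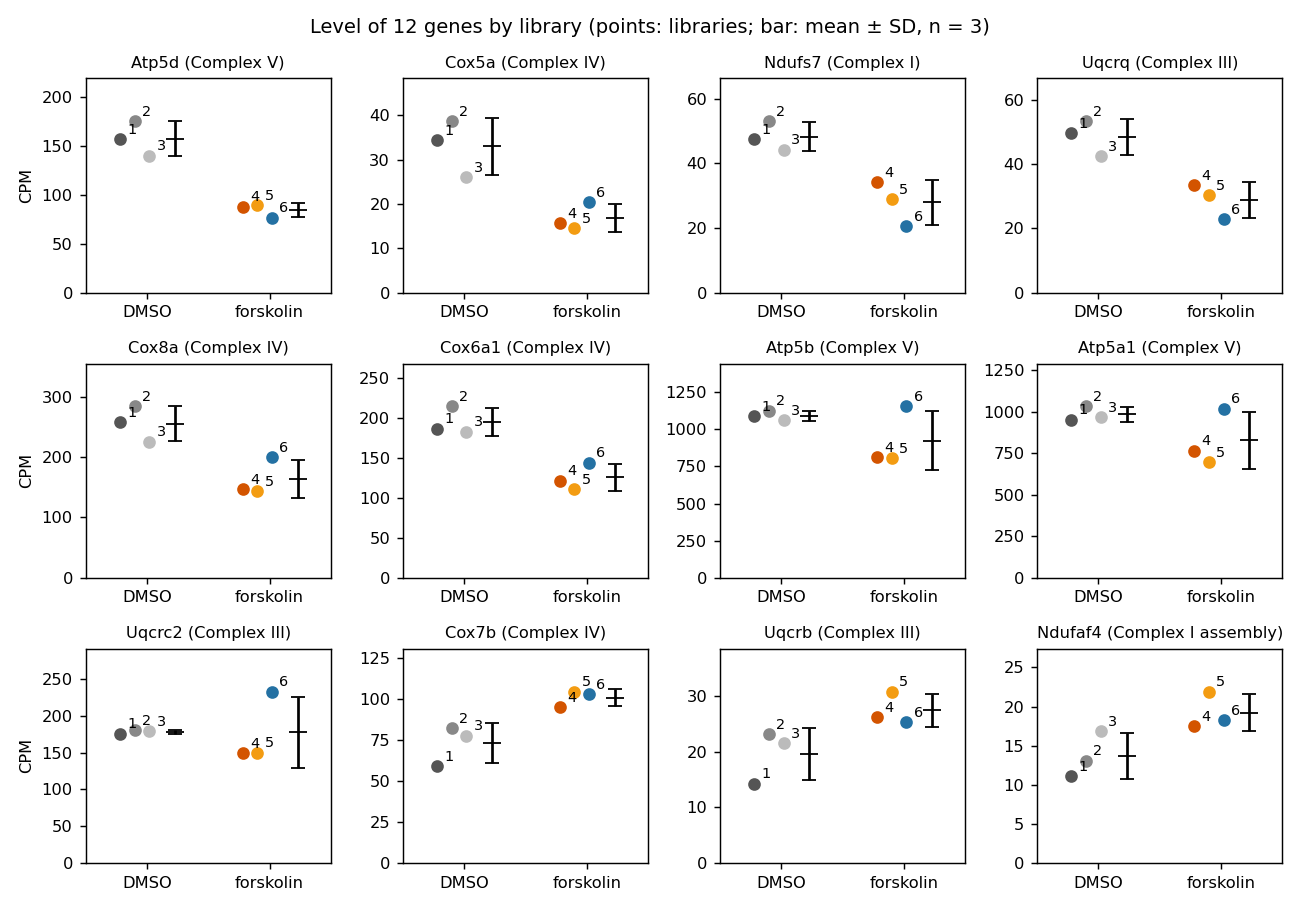
CPM of 12 genes in DMSO libraries 1 to 3 and forskolin libraries 4 to 6 (points, numbered), with the mean and SD of each group (bars, n = 3) and axes that start at 0. Atp5d, Cox5a, Ndufs7, Uqcrq, Cox8a and Cox6a1 show no overlap between groups, whereas in Atp5b, Atp5a1 and Uqcrc2 library 6 sits with or above the controls.

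Sequences upstream of 4 members are shown because they hold, or lack, motifs of factors linked to respiratory genes and to cyclic AMP. The motifs were searched on both strands of RefSeq promoters (GRCm38.p6; 250 bases before to 50 after the start), which were found for 72 of the 86 members. Each line gives the first 200 of those bases, 5′ to 3′ on the gene's strand, with motif letters in capitals. Atp5d, on chromosome 10 (chr10:80142025-80142224, plus strand, inside the span that GENCODE gives the gene), is the 1 called gene and holds none of the motifs. Cox6a1 (chr5:115349009-115349208, minus strand) encodes the main form of a complex IV subunit and holds the NRF1 motif GCGCATGCG in both orientations, which overlap. Ndufa11 (chr17:56717512-56717711, plus strand), a membrane-arm subunit of complex I, holds the cyclic AMP response element TGACGTCA and NRF1. Ndufaf4 (chr4:24897833-24898032, plus strand), a complex I assembly factor, holds NRF1 and the Sp1 motif GGGCGGGG.
Atp5d: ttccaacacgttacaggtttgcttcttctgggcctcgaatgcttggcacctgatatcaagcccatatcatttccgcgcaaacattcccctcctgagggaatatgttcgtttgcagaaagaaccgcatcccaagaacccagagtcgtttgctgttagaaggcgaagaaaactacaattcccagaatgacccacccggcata
Cox6a1: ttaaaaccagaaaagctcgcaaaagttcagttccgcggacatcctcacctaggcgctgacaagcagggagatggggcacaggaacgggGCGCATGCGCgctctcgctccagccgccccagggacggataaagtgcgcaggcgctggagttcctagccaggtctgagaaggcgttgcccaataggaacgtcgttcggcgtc
Ndufa11: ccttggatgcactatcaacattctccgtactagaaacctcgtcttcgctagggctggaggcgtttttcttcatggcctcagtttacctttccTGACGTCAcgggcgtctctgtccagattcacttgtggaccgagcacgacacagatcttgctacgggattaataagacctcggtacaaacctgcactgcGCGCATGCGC
Ndufaf4: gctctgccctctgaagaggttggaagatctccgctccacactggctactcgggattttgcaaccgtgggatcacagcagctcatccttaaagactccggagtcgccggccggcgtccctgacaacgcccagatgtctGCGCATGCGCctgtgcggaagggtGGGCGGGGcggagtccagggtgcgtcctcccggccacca

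The NRF1 motif, bound by nuclear respiratory factor 1, stood in 10 of the 72 members (13.9%), against 1.75% of all 32851 promoters and 3.24% of those of tested genes. Member shares count genes with the motif in any of their promoters (6 members have 2), whereas the other shares count promoters, so the units differ. The YY1 motif AAGATGGC stood in 11 (15.3%), against 2.75% and 3.84%. The ETS motif CCGGAAGT, read by GABPA among others, stood in 5 (6.94%), near the 6.91% of tested genes. The cyclic AMP response element stood in 4 (5.56%), against 1.79% and 2.90%, and the Sp1 motif in 15 (20.8%), against 17.6% and 30.9%. Median log2 fold changes were -0.39 for the 10 with the NRF1 motif and -0.16 for the 61 tested members without it. They were -0.32 for the 4 with the cyclic AMP element and -0.18 for the 67 without, and -0.26 and -0.19 for the ETS motif. The order was the opposite for YY1, with -0.07 for the 11 members that hold it and -0.24 for the others, and for Sp1, with -0.11 for 15 and -0.22 for the others. These shares and medians are descriptions with no test, and a match of letters is not a measured binding site. Of the genes shown, Ndufaf4, Ndufa11 and Cox6a1 hold the NRF1 motif, with fitted log2 fold changes of 0.49, -0.49 and -0.63, or -0.02, -0.14 and -0.21 after correction for GC.

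Complex I takes electrons from NADH; its 36 members here comprise 7 core subunits, which carry the catalytic cofactors and quinone site, and 29 accessory subunits. None changed by the adjusted test, whereas 13 were lower and 1 higher at an unadjusted p under 0.05 (11.7% and 10.6% of all genes). In 17 of 36 every forskolin library lay below every DMSO library and in 1, Ndufa1, every one lay above, beside 16.2% and 10.3% of all genes. The median log2 fold change was -0.26, or -0.13 after correction for GC. The summed level was 2274, 2545 and 2299 CPM in libraries 1, 2 and 3, against 1952, 1888 and 2196 CPM in libraries 4, 5 and 6. These sums did not overlap, and library 6 was the highest of the forskolin libraries.

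Among the core subunits, Ndufs7 carries an iron-sulfur cluster that passes electrons to quinone. It stood at 47.5, 53.0 and 44.2 CPM with DMSO and at 34.2, 29.0 and 20.6 CPM with forskolin, which gave -0.79 ± 0.19 on the log2 scale (adjusted p 0.105). Ndufs8, the neighbouring iron-sulfur subunit, stood at 61.6, 69.5 and 62.7 CPM against 46.8, 47.0 and 48.3 CPM. Its groups lay far apart for their spread, at a log2 fold change of -0.45 ± 0.10 (adjusted p 0.082). Ndufv1, which binds the flavin that accepts electrons from NADH, had -0.35 ± 0.12 (log2, adjusted p 0.160) and groups that did not overlap. Ndufs3, of the quinone-facing arm, had a fitted value of -0.26, and its groups overlapped through library 6. With the GC trend removed, the log2 values were -0.28 for Ndufs7, -0.10 for Ndufs8, -0.08 for Ndufv1 and -0.13 for Ndufs3.

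Of the accessory subunits, Ndufb6 in the membrane arm stood at 23.9, 27.5 and 24.2 CPM against 19.2, 16.5 and 12.8 CPM. Library 6 was the lowest, and the log2 fold change was -0.63 ± 0.17 (adjusted p 0.127). Ndufb8 had a log2 fold change of -0.46 ± 0.10 (adjusted p 0.087), with 60.9, 69.6 and 63.5 CPM against 48.02, 48.9 and 44.3 CPM. Ndufa11 (-0.49 ± 0.14) and Ndufa13 (-0.48 ± 0.15) also had groups that did not overlap, with adjusted p of 0.139 and 0.145. Ndufa1, a small membrane subunit, ran the other way: 21.4, 25.3 and 22.8 CPM against 29.5, 30.0 and 28.2 CPM, which gave 0.33 ± 0.11 on the log2 scale (adjusted p 0.169). Scaled by transcript length, Ndufb9 and Ndufa7 were the most abundant complex I transcripts in these cultures. Ndufb9 had 160.0 ± 6.35 CPM per kilobase with DMSO and 136 ± 26.4 with forskolin (SD, n = 3), and Ndufa7 had 156 ± 16.9 and 127 ± 9.43. The groups overlapped for Ndufb9 and not for Ndufa7, with log2 fold changes of -0.24 ± 0.15 and -0.29 ± 0.12 (adjusted p 0.388 and 0.222). Removing the GC trend brought the log2 values to -0.27 for Ndufb8, -0.14 for Ndufa11, 0.02 for Ndufa13, -0.04 for Ndufb9 and -0.10 for Ndufa7, whereas Ndufb6 stood at -0.69 and Ndufa1 at 0.24.

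The 7 assembly factors, which help to build complex I without staying in it, had a median fold change of 0.05 on the log2 scale, and none was called. Ndufaf2 and Ndufaf4 had the highest fitted values of all tested members. Ndufaf2, a chaperone that leaves the finished complex, stood at 3.34, 5.22 and 4.68 CPM with DMSO and at 6.90, 6.93 and 5.29 CPM with forskolin. The groups came close, library 6 exceeding library 2 by little, and the log2 fold change was 0.53 ± 0.24 (adjusted p 0.251). Ndufaf4 stood at 11.1, 13.1 and 16.9 CPM against 17.5, 21.9 and 18.2 CPM, with 0.49 ± 0.19 (adjusted p 0.205). At 39.5% GC it had the second lowest GC share of the members, and its value after correction for GC was -0.02. Ndufaf5 split the forskolin libraries: 23.8, 25.2 and 22.8 CPM with DMSO, then 16.8, 17.4 and 29.2 CPM.

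Complex III passes electrons from ubiquinol to cytochrome c. The 8 of its genes with a Uqcr symbol included 4 with all forskolin libraries lower and 1 with all higher (16.2% and 10.3% of all genes) and none called, with a median log2 fold change of -0.30. Uqcrq, a small subunit next to the mitochondrially encoded cytochrome b, stood at 49.5, 53.3 and 42.4 CPM against 33.4, 30.4 and 22.8 CPM. These groups were well separated, and the log2 fold change was -0.75 ± 0.17 (adjusted p 0.091). Uqcrc1, a large core protein, stood at 201, 215 and 186 CPM against 147, 137 and 143 CPM (log2 fold change -0.50 ± 0.11, adjusted p 0.086). Its partner core protein Uqcrc2 stood at 176, 181 and 179 CPM against 149, 150.2 and 233 CPM. Libraries 4 and 5 were thus below the controls for both core proteins, while library 6 was below them for Uqcrc1 and above them for Uqcrc2. The GC shares of these transcripts were 57.5% for Uqcrc1 and 44.4% for Uqcrc2. The Rieske iron-sulfur protein gene Uqcrfs1 had the Uqcrc2 pattern, with 96.5, 94.3 and 84.4 CPM against 68.4, 62.8 and 97.5 CPM.

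Per kilobase, Uqcr11 and Uqcrh were the most abundant complex III transcripts. Uqcr11 had 292 ± 30.8 CPM per kilobase with DMSO and 199 ± 31.4 with forskolin, and the groups did not overlap (-0.56 ± 0.15 on the log2 scale, adjusted p 0.129). Uqcrh, the acidic hinge protein, had 201 ± 23.8 and 215 ± 44.6, with 0.10 ± 0.17 (adjusted p 0.766). Uqcrb lay higher in every forskolin library: 14.2, 23.1 and 21.5 CPM against 26.2, 30.8 and 25.3 CPM. Its log2 fold change was 0.48 ± 0.20 (adjusted p 0.223), and library 1 held the lowest value. After correction for GC the log2 values were -0.42 for Uqcrq, -0.18 for Uqcrc1, -0.16 for Uqcr11 and 0.14 for Uqcrb. Uqcrb has 3 near-identical copies in the annotation, so its count is uncertain.

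Complex IV reduces oxygen. Of its 17 members 15 were tested and none was called; of these 15, 5 had all forskolin libraries lower and 1, Cox7b, had all higher, where all genes gave 16.2% and 10.3%. Several of its subunits exist as a main form and a second form that is known from muscle, lung, testis or hypoxic cells. The main forms held nearly all counts here. Cox4i1 made up 99.9 ± 0.02% of the counts of its pair in the DMSO libraries and 99.8 ± 0.07% with forskolin. The share of the second form was 1.06 ± 0.58% and 0.88 ± 0.20% for Cox6a2, 3.93 ± 1.42% and 4.52 ± 1.63% for Cox6b2, 1.34 ± 0.14% and 1.65 ± 0.69% for Cox7a1, and 0.07 ± 0.05% and 0.16 ± 0.14% for Cox8b (SD, n = 3). Forskolin and DMSO libraries overlapped in each of these 4 shares.

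Cox4i2 was the exception in position but rested on few counts. It had 7, 6 and 4 counts in DMSO libraries 1, 2 and 3, compared with 19, 18 and 8 in forskolin libraries 4, 5 and 6. Its share of the Cox4 pair was 0.07, 0.06 and 0.04% against 0.17, 0.24 and 0.09%, so the groups did not overlap (exact two-sided permutation test, p = 0.1, the smallest that 3 against 3 allows). It did not pass the count filter. Cox8b had 5, 1 and 6 counts against 7, 10 and 1. Cox6a2, the form of heart and skeletal muscle, stood at 1.03, 4.20 and 2.41 CPM with DMSO and 1.61, 0.97 and 1.37 CPM with forskolin. The DMSO values spread widely, and its log2 fold change of -0.94 ± 0.51 had an adjusted p of 0.312. Cox6b2 (0.12 ± 0.31) and Cox7a1 (0.26 ± 0.27) had overlapping groups and adjusted p of 0.836 and 0.599; with library size alone as the scaling the value of Cox6b2 was -0.0042.

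The fitted log2 fold changes of the 11 main isoforms ran from -0.97 to 0.47. Cox8a, a small subunit, stood at 258, 284 and 226 CPM with DMSO and 147, 144 and 199.6 CPM with forskolin (log2 fold change -0.64 ± 0.17, adjusted p 0.121). Cox6a1 stood at 186, 214 and 183 CPM against 121, 111 and 144 CPM, with -0.63 ± 0.14 (adjusted p 0.086). Both had groups that did not overlap and library 6 nearest to the controls. Cox5b, at 113, 144 and 116 CPM against 79.2, 89.2 and 98.1 CPM, had -0.49 ± 0.14 (adjusted p 0.140), and Cox4i1, at 313, 312 and 288 CPM against 241, 223 and 258 CPM, had -0.34 ± 0.12 (adjusted p 0.176). Cox6b1, which faces the intermembrane space, had -0.08 ± 0.16 and overlapping groups (adjusted p 0.789). Corrected for GC, the log2 values were -0.23 for Cox8a, -0.21 for Cox6a1, -0.53 for Cox5b and -0.0069 for Cox4i1.

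Cox7b, a complex IV subunit encoded on the X chromosome, lay higher in every forskolin library. It stood at 59.0, 82.1 and 77.4 CPM against 94.7, 104 and 103 CPM, and the fold change was 0.47 ± 0.15 on the log2 scale (adjusted p 0.153). After correction for GC the value was 0.11. Cox7a2 stood at 110.0, 127 and 113 CPM against 103, 98.2 and 164 CPM: libraries 4 and 5 lay below the controls and library 6 above them. Its fitted value of 0.06 ± 0.21 (adjusted p 0.880) turned to -0.03 with library size alone as the scaling. Ndufa4 and Cox8a had the highest complex IV levels per kilobase over the 6 libraries. Ndufa4 had 375 ± 64.0 CPM per kilobase with DMSO and 421 ± 90.8 with forskolin, and Cox8a had 465 ± 53.3 and 298 ± 56.6. Ndufa4 had a log2 fold change of 0.17 ± 0.20 (adjusted p 0.636). Its paralog Ndufa4l2, known from hypoxic cells, was rare, with 15, 22 and 7 counts against 15, 11 and 6.

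Complex V includes Atp5b, the member of highest level per kilobase. Apart from Atp5d, no gene of its 15 was called; 2 had all forskolin libraries lower (Atp5d and Atp5g2) and 1, Atp5j, had all higher, near the 16.2% and 10.3% of all genes. The catalytic beta subunit gene Atp5b had 570.1 ± 17.2 CPM per kilobase with DMSO and 483 ± 104 with forskolin, and the alpha subunit gene Atp5a1 had 398 ± 17.2 and 335 ± 68.8. Atp5b stood at 1089, 1127 and 1061 CPM in libraries 1, 2 and 3, against 811, 807 and 1155 CPM in libraries 4, 5 and 6. Atp5a1 stood at 952, 1032 and 966 CPM against 765, 696 and 1019 CPM. In both, libraries 4 and 5 lay below every control and library 6 did not, and the log2 fold changes were -0.24 ± 0.19 and -0.25 ± 0.18 (adjusted p 0.464 and 0.437). The delta subunit Atp5d was below the controls in library 6, where Atp5a1 and Atp5b were within or above them.

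The c ring of the membrane rotor is encoded by 3 genes whose mature proteins are the same. Atp5g3 held 58.6 ± 4.03% of their counts with DMSO and 57.1 ± 5.99% with forskolin, Atp5g1 32.8 ± 4.22% and 34.9 ± 4.06%, and Atp5g2 8.6 ± 0.50% and 8.0 ± 2.29%. The groups overlapped in each share. Atp5j, a coupling factor of the peripheral stalk, stood at 45.03, 42.8 and 43.4 CPM against 54.9, 48.1 and 56.1 CPM, and the fold change was 0.28 ± 0.10 on the log2 scale (adjusted p 0.187). It shares 397 exonic bases with Gabpa on the opposite strand, which had 738, 593 and 1090 counts with DMSO and 1764, 1599 and 872 with forskolin. Atp5o, the stalk's oligomycin sensitivity protein, stood at 133, 142 and 132 CPM against 99.9, 99.9 and 153 CPM, the same split as Atp5b. Of the genes that carry the symbol without being subunits, Atp5s stood at 8.87, 8.76 and 9.68 CPM against 11.3, 12.1 and 11.0 CPM (log2 fold change 0.34 ± 0.14, adjusted p 0.227; -0.23 after correction for GC). Atp5sl stood at 23.5, 25.5 and 23.6 CPM against 17.4, 16.0 and 20.2 CPM, every forskolin library being lower (log2 fold change -0.44 ± 0.13, adjusted p 0.146). Cox7a2l, which helps to join complexes into supercomplexes, had -0.24 ± 0.12 (adjusted p 0.292).

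**Figure D3:**
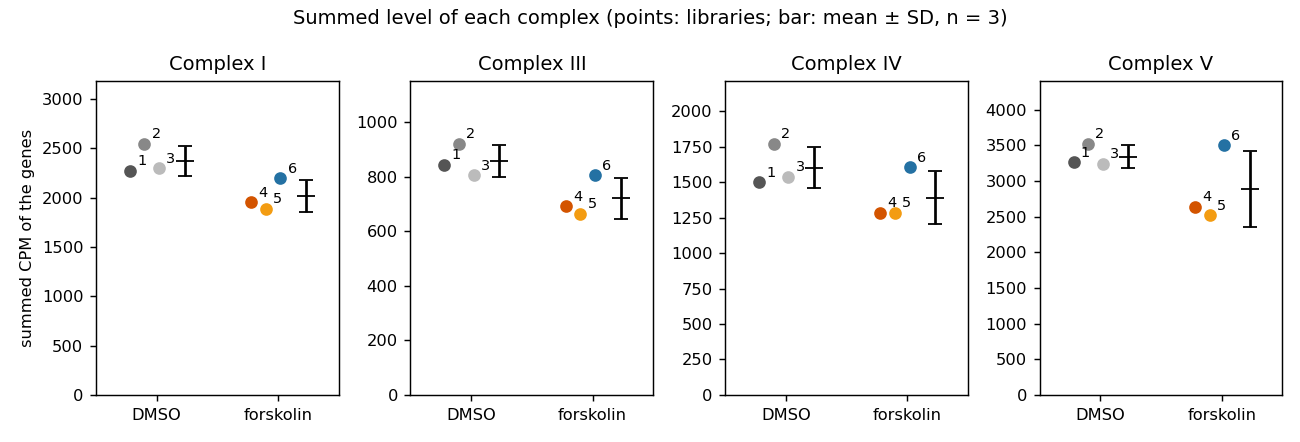
Summed CPM of the genes of complexes I, III, IV and V in each library (points, numbered) with the mean and SD of each group (bars, n = 3) on axes that start at 0. Libraries 4 and 5 lie below all controls in each of the 4 panels, while library 6 reaches the controls in complexes IV and V (1606 and 3499 CPM).

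Library 6 differed from libraries 4 and 5 across the chain. It lay above both in 54 of the 86 members, below both in 27 and between them in 5. Among tested genes it was above both in 64.3% of the members and in 39.5% of all genes, and the median log2 ratio of library 6 to the mean of the other two was 0.20 for members and -0.07 for all genes. In 51 members libraries 4 and 5 both lay below all controls, and in 9 both lay above. Library 6 was below all controls in 35, above all in 32 and within their range in 19. In 11 members, among them Atp5b, Atp5c1, Atp5o, Cox7a2, Ndufs1, Uqcrc2 and Uqcrfs1, libraries 4 and 5 were below every control and library 6 above every control. The shares of all genes in these positions relative to the controls are not given here, so the counts describe the members only. Per complex, library 6 lay above libraries 4 and 5 in 12 of 15 complex V genes, 23 of 36 complex I genes, 9 of 17 complex IV genes and 4 of 8 complex III genes.

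**Figure D4:**
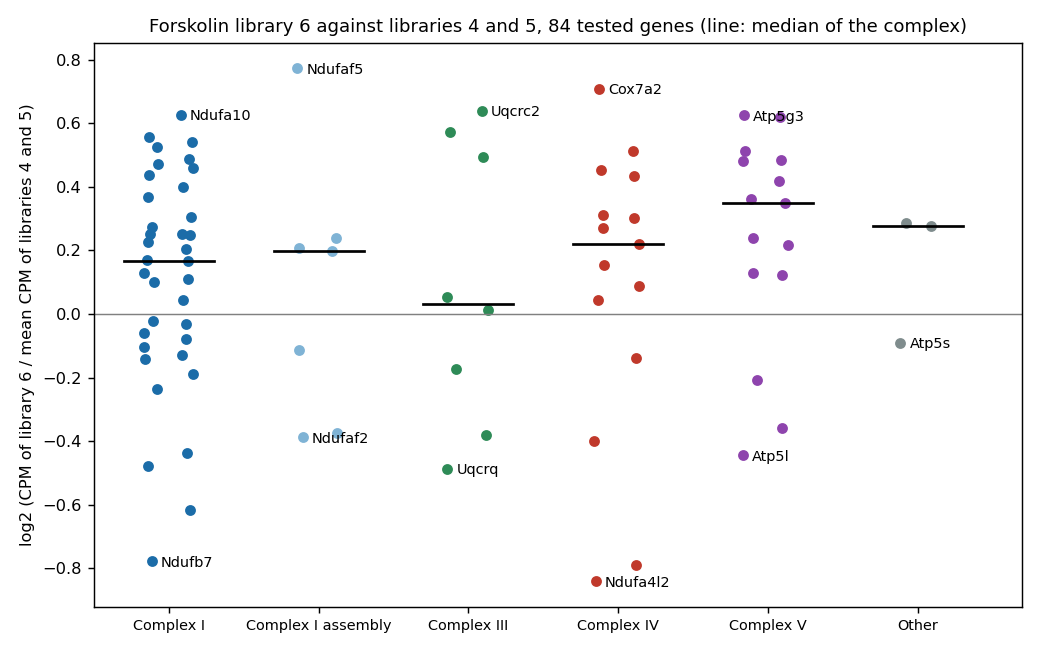
Log2 ratio of the CPM of forskolin library 6 to the mean CPM of forskolin libraries 4 and 5 for the 84 tested genes (points), by complex, with the median of each complex as a line. Most genes lie above 0, and the extremes of each complex are labelled.

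The fold changes of the members also moved with the GC content of their transcripts. Across 83 tested members with an annotated transcript, Spearman's rho between fold change and GC was -0.63, and across 15769 tested genes it was -0.53. These are across genes of the same 6 libraries, which are not independent replicates, and members share depth and scaling. The members' median GC was 51.7%. For the 41 members above it the median fold change was -0.34 (log2), with 23 lower and 0 higher in every forskolin library, while the other 42 had -0.06, with 6 lower and 7 higher. Of all tested genes above that GC share 34.1% lay lower and 2.17% higher in every forskolin library, and of those at or below it 3.01% and 16.2%. Over all tested genes the medians on either side of that GC share were -0.23 and 0.17, so the members' medians lay below these on both sides. Library 6 lay low among the GC-rich members and high among the others: relative to the DMSO mean, the median log2 ratio of members above that GC was -0.32, -0.35 and -0.28 in libraries 4, 5 and 6, and of the rest -0.19, -0.17 and 0.19. With each library's GC trend removed 0 members passed the threshold in either direction, the members' median was -0.13 and rho was 0.00. Transcript length had no such relation (rho -0.01).

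**Figure D5:**
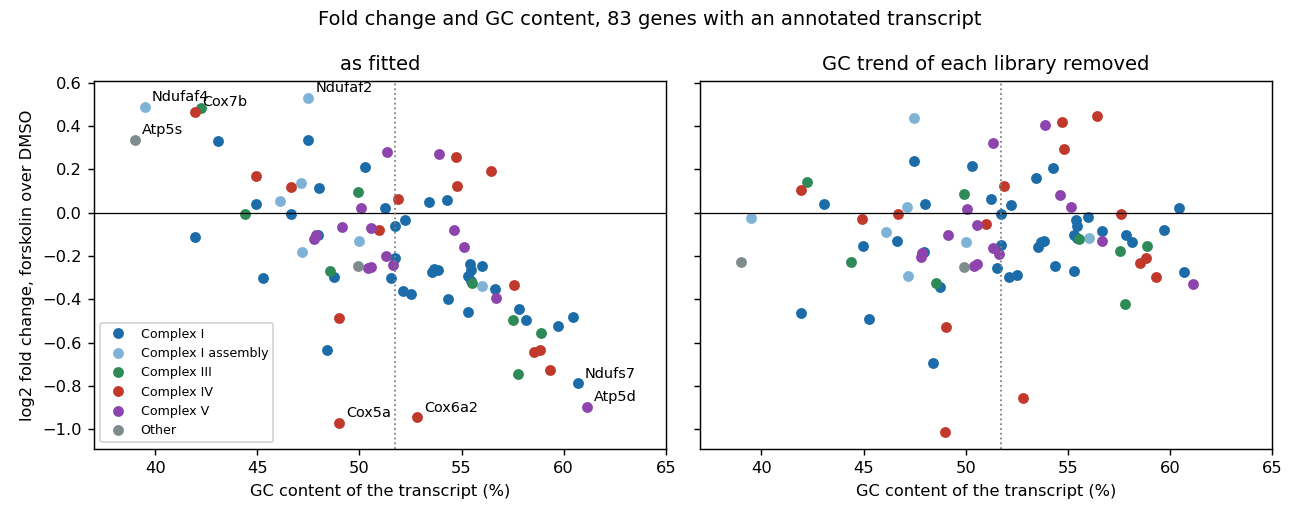
Log2 fold change (forskolin over DMSO) against GC content of the transcript in percent for 83 genes, as fitted (left) and with the GC trend of each library removed (right), with colours for the complexes and a dotted line at the members' median of 51.7%. The slope on the left is absent on the right, where the removal takes it out by design and Cox5a remains the lowest point.

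Other genes of the pathway, a list of 49 that covers complex II, cytochromes c and c1, assembly factors of complexes I to V, factors for mitochondrially encoded subunits (Lrpprc, Taco1), the ATP synthase subunit Usmg5 and its inhibitor Atpif1, held no called gene. Of 48 found and 45 tested, 11 had all forskolin libraries lower and 2 all higher (16.2% and 10.3% of all genes), and the median log2 fold change was -0.12. Without library 6, 13 of 45 were called lower and 0 higher (17.1% and 16.5% of all genes). Cyc1, the cytochrome c1 subunit of complex III, stood at 89.6, 92.4 and 80.3 CPM against 61.5, 55.7 and 83.6 CPM, the same split of library 6. Cox11, a copper chaperone for complex IV, had the lowest value, with 75, 62 and 52 counts against 45, 30 and 23 and a log2 fold change of -1.20 ± 0.30 (adjusted p 0.104).

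Complexes I, III, IV and V also contain the 13 subunits encoded in mitochondrial DNA. Of 8 tested, none was called, and their median log2 fold change was 0.40, which turned to -0.26 with the GC trend removed. Without library 6, 2 of 10 (mt-Nd1 and mt-Cytb) were called higher and 0 lower, beside 16.5% and 17.1% of all genes. Among the 13, there were 6, including mt-Co2, mt-Co3 and mt-Atp6, listed at 0 in at least 1 library. The summed level of the 13 was 5931, 8608 and 10135 CPM against 9761, 14389 and 9679 CPM, with overlapping groups. Most of it came from mt-Co1, at 3718, 5686 and 7002 CPM against 6475, 8580 and 6784 CPM. Of 15 regulators of mitochondrial biogenesis, which include Nrf1, Gabpa, Ppargc1a and Tfam, all were tested and none was called. Among them 4 had all forskolin libraries lower and 1 all higher (16.2% and 10.3% of all genes). Without library 6, 2 were called lower and 2 higher (17.1% and 16.5% of all genes). Among 20 primary response genes of cyclic AMP and activity, used as a check of the treatment, 8 were called higher and 0 lower, beside 0.172% and 1.34% of all genes, and without library 6 there were 16 higher and 0 lower. Nr4a2 stood at 4.87, 6.30 and 7.13 CPM against 42.0, 42.2 and 21.3 CPM.

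Some counts carry limits of annotation. Of 85 members compared, 12 have 25 near-identical copies elsewhere (at least 95% identity over 50% of the length), of which 3 have a row of their own in the table. Exons of 29 members overlap those of a gene on the opposite strand. Those of Atp5o share 287 bases with Donson on the same strand.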

How the data were processed

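RNA of 3 DMSO and 3 forskolin libraries was analysed, grouped by the labels. The authors deposited whole-number counts per gene symbol; per the submitters' processing notes, Salmon, DESeq and GRCm38 were used, without versions or roles, and the strand setting is not given in the sources used here. The authors' deposited table of log2 fold changes for 132 genes was used only for membership.

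Counts were tested with edgeR 4.0.16 in R 4.3.3: filterByExpr (minimum count 10, minimum total 15), TMM factors, glmQLFit and glmQLFTest with the group as the only term, over 16233 genes, with Benjamini-Hochberg adjustment; calls had an adjusted p under 0.05. Positive fold changes mean higher with forskolin. The SE equals the size of the fold change over the root of its F statistic. CPM used TMM-scaled library sizes, and log2 ratios added 0.5 CPM. Lengths and GC content came from GENCODE M21, using the APPRIS principal transcript of lower-median length. GC and length trends were removed per library by lowess (span 0.3) as offsets. Alternatives were DESeq2 1.42.0, limma 3.58.1 with library quality weights, other scalings and filters, and libraries left out. The fits were also run on simulated counts with less spread and larger fold changes than these genes had. That run does not show how the fits perform on these data.

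Members and lists were chosen with earlier results of these data known. Named by rule were the isoform pairs of complex IV, the 2 members of highest length-scaled level in each of complexes I, III, IV and V, members past the threshold, and the 5 highest and 5 lowest fold changes with a mean count of at least 20. Other genes were named after their values were seen. Some single genes are not reported here.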

Additional observations from a re-analysis of the deposited data

How the results depend on the processing

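The median log2 fold change of the tested members lay below 0 in all alternatives run except that with libraries 4 and 5 both left out, a setting chosen after seeing the data, where it was 0.051. With single libraries left out it ran from -0.30 to -0.10. Library size alone moved the median of all genes from 0.02 to -0.09 and that of the members to -0.33. The log2 ratio of group means of the members' summed CPM was -0.22, from -0.33 to -0.15 with single libraries left out and -0.011 without libraries 4 and 5. As a share of counts outside mitochondrially encoded genes, a scaling also chosen after seeing the data, it was -0.11. The ratio was not computed for DESeq2, limma, the filters or the GC and length corrections. Members called lower were 12 with DESeq2 and 39 with limma's quality weights. They were 2 with the length trend removed, 0 with the GC trend removed and from 0 to 34 with single libraries left out. For the length and GC corrections, and with any one of libraries 1 to 5 left out, the share of all genes called is not given. Those counts are therefore no result about the members. Calls are not given without libraries 4 and 5, since that setting leaves 1 forskolin library, assumed to vary like the controls. Of the members limma called 5 higher. Of the other pathway genes DESeq2 called 4 lower, and limma 16 lower and 1 higher; with single libraries left out from 0 to 13 were lower. Of 38 tested genes that the naming rule took or whose fold change is printed, 12 changed sign in 22 of 606 combinations of gene and setting. With libraries 4 and 5 left out the log2 values became 0.090 for Atp5a1, 0.12 for Atp5b, 0.15 for Cox6b1, -0.41 for Cox6b2, 0.090 for Ndufb9 and 0.029 for Ndufs3. With the GC trend removed they became -0.23 for Atp5s, 0.019 for Ndufa13, -0.030 for Ndufa4 and -0.023 for Ndufaf4. With limma's quality weights they became -0.22 for Cox7a2, -0.054 for Ndufa4 and -0.11 for Uqcrh, and with library size alone -0.0042 for Cox6b2 and -0.034 for Cox7a2. With single libraries left out they ran from -0.20 to 0.057 for Cox6b1, -0.068 to 0.36 for Cox6b2, -0.23 to 0.23 for Cox7a2, -0.040 to 0.32 for Ndufa4 and -0.10 to 0.22 for Uqcrh. The cause of these changes was not tested. No paired analysis was possible because the groups share no replicate number. Depth limits Cox4i2, Cox8b and Ndufa4l2, which had at most 22 counts in a library.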
